A study of Homo sapiens with 6 samples.

Results

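The CXC chemokines examined here were the 10 genes CXCL1, CXCL2, CXCL3, CXCL5, CXCL6, CXCL8, CXCL9, CXCL10, CXCL11 and CXCL12, among 19775 genes measured. Every probe set that the array annotation assigns to exactly 1 of these symbols was taken, which gave 17 probe sets. This rule used no measured value, but the members were chosen with earlier results of these data known. All 10 genes were measured and no filter on low values was applied. The cells were K562, a human erythroleukemia line derived from chronic myeloid leukemia, stably transfected with the pTRE ERG3 construct, from which doxycycline (DOX) drives the transcription factor ERG. The first group, labelled ERG-induced, held the clones CL4, CL9 and CL46 after DOX at 1 µg/ml, for 8 days by the labels, and the second, labelled non-induced, held the same 3 clones without DOX. Each clone gave 1 Affymetrix U133 Plus 2.0 array per condition, 6 arrays in all, and each clone is a single line. The spread given below is that between the arrays of a group, where differences of clone, culture and array cannot be told apart. DOX was present in all cultures of the first group and absent from the second, so that effects of ERG and of DOX cannot be told apart. The time in DOX is not certain, since a legend on these arrays gives a shorter one than the labels.

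Chemokines are small secreted proteins that guide the migration of leukocytes. Those of the CXC class that carry the amino acids glutamate, leucine and arginine before the first cysteine pair, called ELR chemokines, act on the receptors CXCR1 and CXCR2 and attract neutrophils. CXCL9, CXCL10 and CXCL11 lack these residues, are known as products of interferon-treated cells and act on CXCR3 of activated T cells. CXCL12, made by bone marrow stroma, acts on CXCR4 and keeps blood stem cells in the marrow, and ACKR3 binds CXCL11 and CXCL12 without classical signalling. In many cell types the genes of the ELR group are transcribed under NF-kB, a factor activated by inflammatory signals.

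The genes lie in clusters. On chromosome 4 of GRCh38.p14 the ELR members follow each other from CXCL8, which starts at 73740569, through CXCL6, CXCL1, CXCL5 and CXCL3 to CXCL2, which ends at 74099195. CXCL9, CXCL10 and CXCL11 stand side by side further along, from 76001275 to 76036070, and CXCL12 is apart at chr10:44370165-44385097. The 250 bases before the annotated start of each gene (RefSeq, GRCh38.p14) were searched on both strands for 4 motifs. The letters were settled after the members' sequences had been read, so that the counts are a description. The NF-kB letters GGAATTTCC were found in 8 of the 10 members, in all 6 ELR genes and in CXCL10 and CXCL11, and in 145 of 35116 RefSeq promoters (0.413%). The windows around these matches are shown because they tell which members share the site, with the match in capitals and each read 5′ to 3′ on the strand of its gene (in CXCL10 and CXCL11 the match is on the opposite strand).
CXCL1: tggaactccgGGAATTTCCctggcccggg
CXCL2: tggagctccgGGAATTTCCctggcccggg
CXCL3: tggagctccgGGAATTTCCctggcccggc
CXCL5: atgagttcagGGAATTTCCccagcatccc
CXCL6: ctgagttcagGGAATTTCCccagcatccc
CXCL8: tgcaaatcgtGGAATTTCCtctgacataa
CXCL10: aggagcagagGGAAATTCCgtaacttgga
CXCL11: actcaaagagGGAAATTCCtgtgccataa

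These windows lie at chr4:73869305-73869333 (CXCL1), chr4:74099254-74099282 (CXCL2), chr4:74038749-74038777 (CXCL3), chr4:73998749-73998777 (CXCL5), chr4:73836579-73836607 (CXCL6), chr4:73740468-73740496 (CXCL8), chr4:76023655-76023683 (CXCL10) and chr4:76036127-76036155 (CXCL11), all upstream of the gene. The plus strand carries CXCL1, CXCL6 and CXCL8, and the minus strand carries the others. The AP-1 letters TGANTCA were present in CXCL8 and CXCL11 and in 6.57% of all promoters. The interferon-stimulated response element, written as GAAA repeated after any 2 bases, was present in CXCL9 and CXCL10 and in 3.02% of all promoters. The ETS letters AGGAAG, named for the family to which ERG belongs, were present in 6 of the 10 members and in 28.7% of all promoters. The matches in the members do not overlap one another.

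The 250 bases before CXCL11, the member with the largest difference on the arrays, are printed with the ETS, AP-1 and NF-kB matches in capitals, in that order (chr4:76036071-76036320, minus strand).
CXCL11: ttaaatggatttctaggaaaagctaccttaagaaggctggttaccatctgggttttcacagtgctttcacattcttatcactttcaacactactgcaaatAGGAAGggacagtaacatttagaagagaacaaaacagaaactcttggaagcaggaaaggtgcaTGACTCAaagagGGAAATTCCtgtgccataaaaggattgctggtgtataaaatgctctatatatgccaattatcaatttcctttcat

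The array values are linear ratios to the median of the same probe set over the 6 arrays. A ratio of 1 is therefore the middle of these arrays and says nothing of how strongly a gene was expressed, and levels of different genes cannot be compared. For the same reason the erythroid identity of the cells could not be checked from marker levels. The median ratio per array ran from 0.898 to 0.998 in the arrays labelled ERG-induced and from 0.990 to 1.07 in those labelled non-induced. Ribosomal RNA controls also differed, with log2 values 1.21 (CL4), 0.59 (CL9) and 0.82 (CL46) above those of the non-induced array of the clone. Their part in the results below was not tested. ERG itself, averaged over its 4 probe sets, had ratios of 1.11 (CL4), 0.523 (CL9) and 0.612 (CL46) with the ERG-induced label, against 2.83, 0.913 and 0.675 with the non-induced label. The mean was thus lower in the ERG-induced array of each clone, and ERG was not called (log2 difference -0.76, SE 0.63, adjusted p = 0.671). The probe sets did not agree on this, and only 213541_s_at was lower in all 3 clones. Between clones, the difference ran from -3.22 (CL4) to 1.39 (CL9) on 211626_x_at and from -0.78 (CL9) to 0.06 (CL4) on 222079_at. On 241926_s_at it ran from -2.73 (CL9) to 4.06 (CL46). Whether these probe sets detect the introduced ERG3 sequence is not known. Groups are therefore named as labelled, and each direction below rests on those labels.

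For each gene the log2 ratios of its probe sets were averaged and the groups compared with limma across all genes. A gene was called where the fold reached 2 with p under 0.05 before adjustment, the thresholds of the study, and the p adjusted over all genes (Benjamini-Hochberg) is given beside it. Of the 10 CXC chemokines, CXCL11 and CXCL1 rose and CXCL2 fell in the arrays labelled ERG-induced, and 7 were not called. Over all genes, 3.12% were called higher and 6.32% lower, and with 10 members the counts of 2 and 1 are too few to set the members apart from that background. After adjustment over all genes, 0 genes passed (0%), where 2544 had an unadjusted p under 0.05 in limma. The median log2 difference was 0.51 over the 10 members and -0.03 over all genes. By clone the median of the members was -0.10 (CL4), 0.34 (CL9) and 1.16 (CL46). Errors of differences are standard errors (SE) of the limma fit over 3 arrays against 3, and the number of arrays limits the precision.

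**Figure D1:**
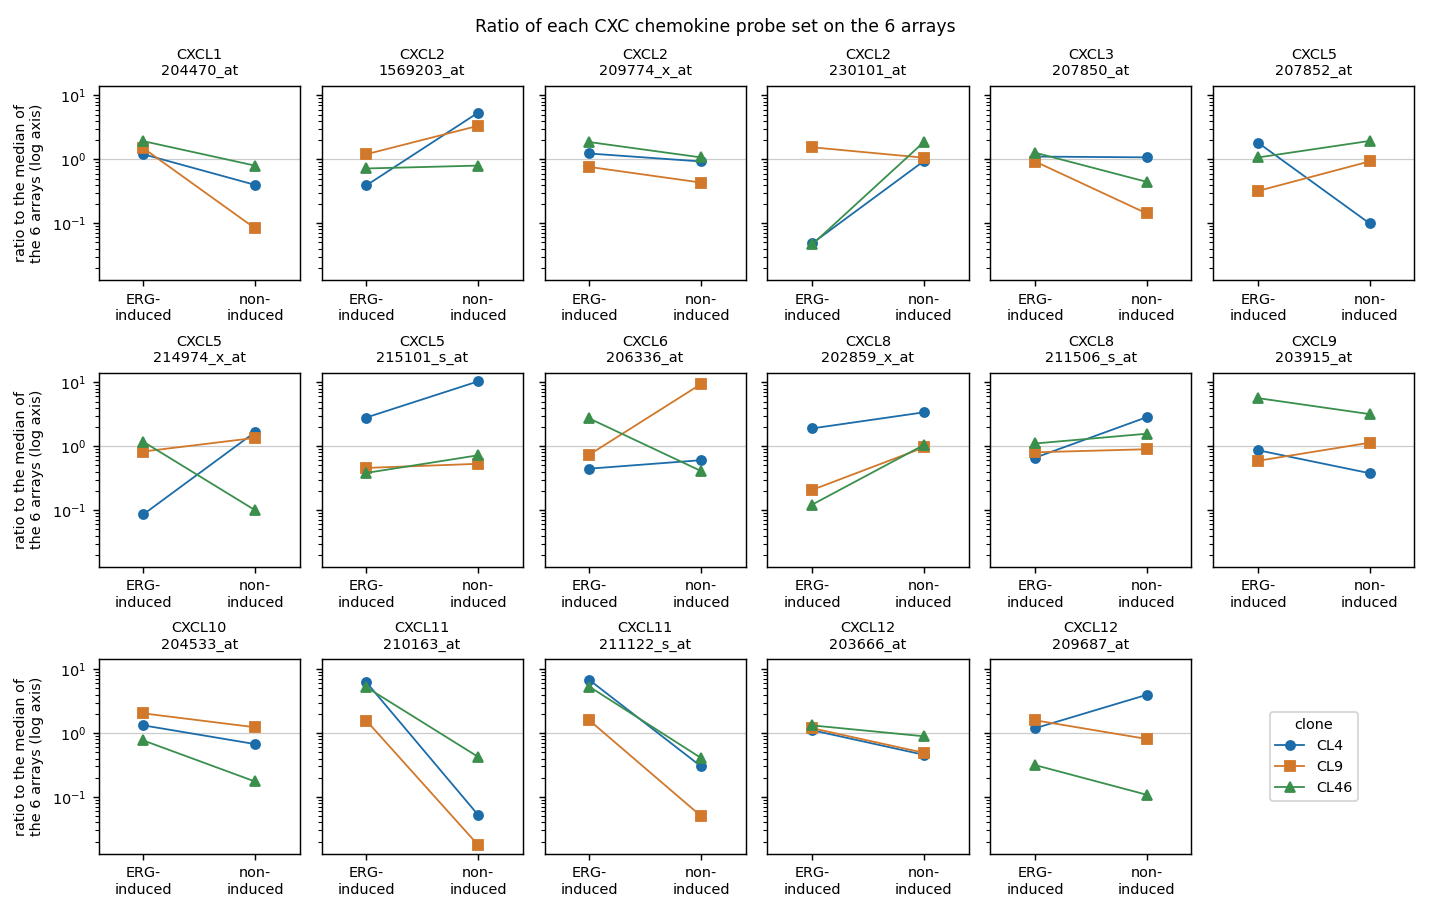
Ratio of each of the 17 probe sets to its median over the 6 arrays (log axis), with the arrays labelled ERG-induced on the left and non-induced on the right of each panel, and a line joining the 2 arrays of a clone. Both CXCL11 probe sets fall steeply from left to right in every clone. In 6 probe sets, among them those of CXCL6 and CXCL9, some clones rise and others fall.

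CXCL11 was the CXC chemokine with the largest difference, 32.6-fold higher in the arrays labelled ERG-induced, and ranked 4 of 19775 genes from the highest. Its probe set 210163_at had ratios of 6.27, 1.57 and 5.24 in the arrays of CL4, CL9 and CL46 labelled ERG-induced, against 0.0527, 0.0178 and 0.427 in those labelled non-induced. The second probe set, 211122_s_at, had 6.80, 1.59 and 5.34 in the same arrays labelled ERG-induced, against 0.302, 0.0505 and 0.409 in the non-induced ones. In both probe sets all 3 arrays labelled ERG-induced were above all 3 labelled non-induced, and CL9 was the lowest clone in both conditions. The log2 difference averaged over both was 5.03 (SE 1.07, adjusted p = 0.209). The clones gave 5.69 (CL4), 5.72 (CL9) and 3.66 (CL46). Singly, 210163_at gave 5.66 (SE 1.27) and 211122_s_at gave 4.39 (SE 0.99), of which 210163_at was not called without CL4 (5.04). The call of the gene was kept under all 11 alternative settings, with values between 4.68 and 5.71, the highest without CL46.

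CXCL10, the neighbour of CXCL11 and an interferon-induced attractant of T cells, was not called. Its single probe set had ratios of 1.32, 2.04 and 0.767 in the arrays of CL4, CL9 and CL46 labelled ERG-induced, against 0.673, 1.23 and 0.175 in those labelled non-induced. Within each clone the array labelled ERG-induced was the higher, but the groups overlapped because CL46 was low in both conditions. The log2 difference was 1.28 (SE 0.80, adjusted p = 0.568). With the clone as a block, a fit that compares the 2 arrays within each clone, CXCL10 was called higher (unadjusted p = 0.0368 in limma). In that fit 3.34% of all genes were called higher and 6.39% lower.

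CXCL9, the third gene of that cluster, did not follow the others. Its ratios were 0.865, 0.592 and 5.66 in the arrays labelled ERG-induced (CL4, CL9 and CL46), against 0.378, 1.13 and 3.18 in those labelled non-induced. CL46 was the highest clone in both conditions, and CL9 ran opposite to the other two. The log2 difference was 0.36 (SE 1.13, adjusted p = 0.930), not called, and it was -0.05 without CL4.

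CXCL12, the stromal ligand of CXCR4, gave unlike results in its 2 probe sets. On 203666_at the ratios were 1.11, 1.19 and 1.32 in the arrays labelled ERG-induced (CL4, CL9 and CL46), against 0.457, 0.491 and 0.891 in those labelled non-induced, with no overlap of the groups. This probe set was called higher, with a log2 difference of 1.04 (SE 0.36, adjusted p = 0.318 over all probe sets), and lost the call without CL4 (0.92) or CL9 (0.92). On 209687_at the ratios were 1.19, 1.59 and 0.315, against 3.97, 0.809 and 0.108 in the non-induced arrays, and CL4 ran downward where the others ran upward. The mean over both was 0.65 (SE 0.61, adjusted p = 0.719), not called.

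Among the ELR chemokines the members went in both directions, with a median log2 difference of -0.38 over the 6 genes, against 0.96 over the 4 members without ELR. The ELR median changed sign between clones, at -0.55 (CL4), -0.43 (CL9) and 0.93 (CL46). That of the members without ELR was 1.08, 0.92 and 1.59 in the same clones. CXCL1, an attractant of neutrophils first known as a growth factor of melanoma cells, rose 5.08-fold. Its ratios were 1.20, 1.499 and 1.93 in the arrays labelled ERG-induced (CL4, CL9 and CL46), against 0.399, 0.0833 and 0.798 in those labelled non-induced. The groups did not overlap. Over all genes, the ERG-induced arrays all lay above the others in 7.98% and all below in 13.6%. The ERG-induced values lay close together, and the low non-induced array of CL9 made the largest difference, 4.17 on the log2 scale, against 1.59 in CL4 and 1.27 in CL46. The log2 difference was 2.34 (SE 0.84, adjusted p = 0.343), and the call was lost without moderation of the variances and without CL9 (1.43) or CL4 (2.72).

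CXCL3 and CXCL2 are close relatives of CXCL1, and probes for 1 of these near-identical transcripts can bind another. CXCL3 had ratios of 1.11, 0.925 and 1.27 in the arrays labelled ERG-induced (CL4, CL9 and CL46), against 1.07, 0.142 and 0.444 in those labelled non-induced. As for CXCL1, the lowest value was that of the non-induced array of CL9, while CL4 barely differed. The log2 difference of CXCL3 was 1.42 (SE 0.74, adjusted p = 0.487), not called, and CXCL3 was called higher without CL4 (2.11).

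CXCL2 fell 2.61-fold in the mean over its 3 probe sets (log2 difference -1.38, SE 0.56, adjusted p = 0.387), although none of the 3 was called singly. On 1569203_at the ratios were 0.391, 1.20 and 0.720 in the arrays labelled ERG-induced (CL4, CL9 and CL46), against 5.36, 3.34 and 0.798 in those labelled non-induced. On 230101_at they were 0.0483, 1.55 and 0.0465, against 0.939, 1.06 and 1.86 in the non-induced arrays. On 209774_x_at, whose suffix marks probes that may bind other transcripts, they were 1.23, 0.762 and 1.87, against 0.927, 0.433 and 1.07. The first probe set was lower in all 3 clones, the second was low in CL4 and CL46 only, and the third was higher in all 3. Their log2 differences were -1.80 (SE 0.84), -3.02 (SE 1.46) and 0.68 (SE 0.52). The gene's call was lost under 8 of 11 settings. Among them, the clone as a block gave an unadjusted p of 0.0863 in limma, each array centred on its median gave -1.28, the median over probe sets -0.55, leaving out CL4 -0.80 and leaving out CL46 -1.29.

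CXCL8, or interleukin 8, the main attractant of neutrophils in humans, was lower in every clone but was not called. On 202859_x_at the ratios were 1.90, 0.207 and 0.122 in the arrays labelled ERG-induced (CL4, CL9 and CL46), against 3.39, 0.955 and 1.04 in those labelled non-induced. On 211506_s_at they were 0.660, 0.803 and 1.10, against 2.85, 0.897 and 1.57. CL4 was the highest clone in both conditions on the first probe set, so that the groups overlapped although the direction was the same in each clone. The log2 difference over both was -1.49 (SE 0.64, adjusted p = 0.415). In this mean the clones gave -1.47 (CL4), -1.18 (CL9) and -1.80 (CL46), the narrowest range of the 10 genes. Singly they differed more, with -0.83, -2.21 and -3.10 on 202859_x_at and -2.11, -0.16 and -0.51 on 211506_s_at. CXCL8 was called lower with the clone as a block (unadjusted p = 0.00622 in limma) and without CL4 (-1.49). In these settings 202859_x_at was called singly and 211506_s_at was not. Without the _x_at probe set CXCL8 was at -0.93, not called.

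CXCL5 and CXCL6, which have near-identical windows around the NF-kB letters, went different ways between clones and probe sets. CXCL6 had ratios of 0.445, 0.736 and 2.72 in the arrays labelled ERG-induced (CL4, CL9 and CL46), against 0.604, 9.37 and 0.410 in those labelled non-induced. Its log2 difference was -0.46 (SE 1.36, adjusted p = 0.926), but it was 1.15 without CL9 and -2.05 without CL46. The 3 probe sets of CXCL5 gave log2 differences of 0.60 (SE 1.28), -0.48 (SE 1.51) and -1.003 (SE 1.41). In CL4, 207852_at had a ratio of 1.82 with the ERG-induced label against 0.0991 with the non-induced label, where 214974_x_at had 0.0856 against 1.66. The mean of CXCL5 was -0.29 (SE 0.40, adjusted p = 0.818), with an SE below that of each probe set. The 3 probe sets went both ways in CL4 and in CL46, and all were lower in CL9.

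**Figure D2:**
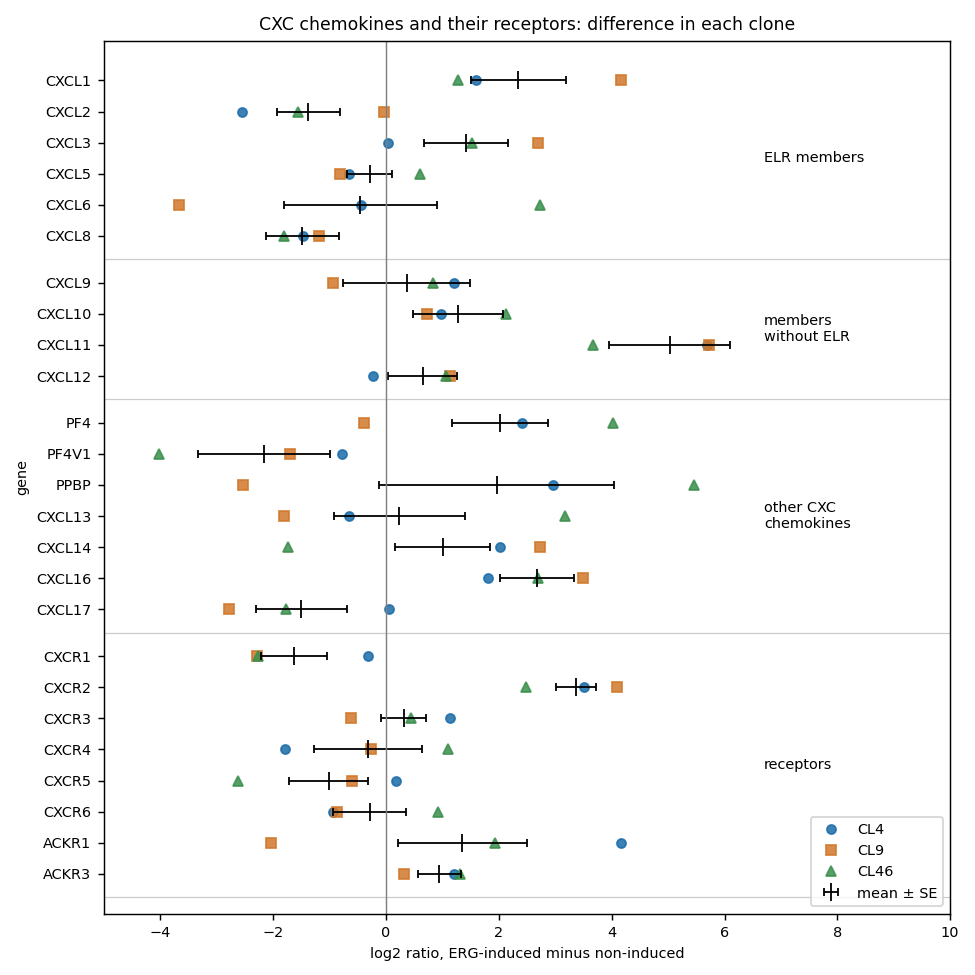
Log2 ratio (horizontal), ERG-induced minus non-induced by label, for the 10 CXC chemokines, 7 other CXC chemokines and 8 receptors. Coloured symbols are the clones and black bars give mean ± SE (limma, 3 arrays against 3). Among the genes on 1 side of 0 in all 3 clones are CXCL11 at 5.03, CXCR2 at 3.36, CXCL16 at 2.67 and, below 0, CXCL8 at -1.49.

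Taken singly, 4 of the 17 probe sets rose, both of CXCL11, that of CXCL1 and 1 of CXCL12, and 0 fell (limma, at the same thresholds). Over all 54613 probe sets 2.82% were higher and 8.16% lower. The same 4 were the probe sets whose arrays labelled ERG-induced all lay above those labelled non-induced, which held for 7.14% of all probe sets, and 0 lay wholly below, against 15.1% of all. Of the 17, 7 were higher in all 3 clones, 4 were lower in all 3 and 6 went both ways. The spread within the groups was large. The residual SD of 14 of the 17 exceeded the median of all probe sets, 0.77 on the log2 scale, and that of 214974_x_at of CXCL5 was the largest among the members at 2.16, above 95.5% of all probe sets. By contrast 203666_at of CXCL12 had the smallest, 0.38.

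**Figure D3:**
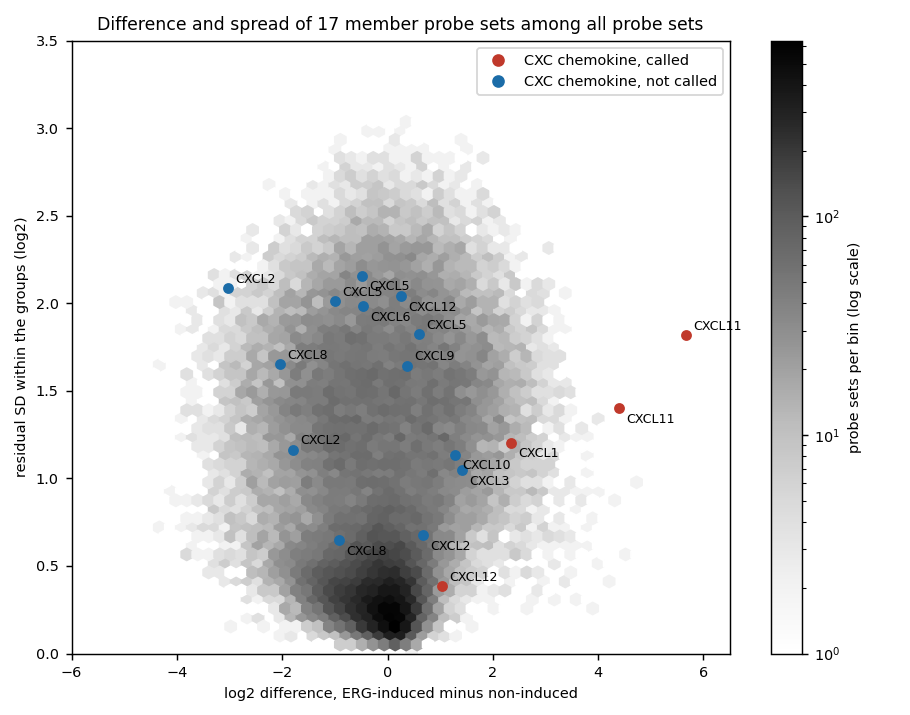
Log2 difference, ERG-induced minus non-induced by label (horizontal), and residual SD within the groups (vertical) of the 17 CXC chemokine probe sets, over all 54613 probe sets in grey, where the shade gives the number per bin on a log scale. The 2 probe sets of CXCL11 lie to the right of nearly all others, and 14 of the 17 lie above the median residual SD of all probe sets, 0.77.

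The receptors of the ELR chemokines went in opposite directions. CXCR2, which binds all ELR chemokines, rose 10.3-fold. Its single probe set had ratios of 2.39, 3.17 and 1.70 in the arrays labelled ERG-induced (CL4, CL9 and CL46), against 0.210, 0.185 and 0.304 in those labelled non-induced. The clones were close to each other in both conditions, the groups were far apart, and the log2 difference was 3.36 (SE 0.35, adjusted p = 0.121). CXCR2 kept its call under all 11 alternative settings, with values between 2.99 and 3.80. CXCR1, which binds CXCL6 and CXCL8, fell 3.09-fold. It had ratios of 0.935, 0.265 and 0.219 in the arrays labelled ERG-induced, against 1.18, 1.29 and 1.06 in those labelled non-induced. CL4 carried little of this difference. The log2 difference of -1.63 (SE 0.59, adjusted p = 0.344) lost its call without CL9 (-1.30), without CL46 (-1.30) or without moderation of the variances.

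The receptors of the members without ELR were not called. CXCR3, the receptor of CXCL9, CXCL10 and CXCL11, had a difference of 0.31 (SE 0.40, adjusted p = 0.803), higher in CL4 (1.12) and CL46 (0.44) and lower in CL9 (-0.63). For CXCR4 it was -0.32 (SE 0.96, adjusted p = 0.927), lower in CL4 (-1.80) and CL9 (-0.26) and higher in CL46 (1.09). ACKR3 differed by 0.94 (SE 0.38, adjusted p = 0.386), higher in 3 of 3 clones in the mean over its 3 probe sets. The mean was called higher with arrays centred (1.05), after quantile normalization (1.12), with gene values centred (1.01) and on probe sets with a median of 1 (1.48). Singly no probe set was called. Of them 1559114_a_at (-0.13) was lower in all 3 clones, 212977_at (1.43) was lower in CL9 only and 232746_at (1.53) was higher in all 3. CXCR5, CXCR6 and ACKR1, receptors for other or for many chemokines, went both ways between clones, and ACKR1 was called higher without CL9 (3.05). Of the 8 receptors, 1 rose and 1 fell, and the median was 0.01.

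Of 7 CXC chemokines outside the set, 1 rose. CXCL16, a chemokine that is made as a membrane protein and binds CXCR6, had ratios of 1.55, 1.47 and 3.45 in the arrays labelled ERG-induced (CL4, CL9 and CL46), against 0.441, 0.131 and 0.530 in those labelled non-induced. It rose 6.35-fold (log2 difference 2.67, SE 0.66, adjusted p = 0.237) in all 3 clones and under all 11 settings. The platelet chemokine genes PF4 and PPBP, which lie inside the ELR cluster, differed by 2.02 (SE 0.85) and 1.96 (SE 2.08). Both were higher in CL4 and CL46 and lower in CL9, and neither was called. PF4 was called higher without CL9 (3.22) and after quantile normalization (2.18), and PPBP without CL9 (4.204). PF4V1, a close copy of PF4 in the same cluster, differed by -2.17 (SE 1.17), lower in 3 of 3 clones and not called. CXCL14 and CXCL17 were not called either and also depended on the clones. CXCL14 differed by 1.005 (SE 0.84), and by 2.38 without CL46. CXCL17 differed by -1.50 (SE 0.80), and by -2.28 without CL4.

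Chemokines of the other classes were measured by 22 genes, of which 1 rose and 1 fell, with a median log2 difference of 0.16. CCL5, or RANTES, an attractant of T cells and monocytes, rose 6.89-fold (log2 difference 2.78, SE 0.52, adjusted p = 0.192). Its 3 probe sets were all called higher, at 3.63, 3.24 and 1.49. On the last, 204655_at, CL9 was slightly lower (-0.08) and the groups overlapped. XCL1, a chemokine of lymphocytes, was 2.56-fold lower (SE of the log2 difference 0.37, adjusted p = 0.265). Of its probe sets 206365_at was called lower (-2.13), while 206366_x_at gave -0.58 and was not called. Of 13 receptors of these classes, CCR4 and CCR7, which direct T cells to skin and to lymph nodes, fell, with log2 differences of -1.57 (adjusted p = 0.242) and -2.45 (adjusted p = 0.299), and 0 rose. The call of XCL1 was lost without CL9 (-1.13), that of CCR4 without CL46 (-1.05) and that of CCR7 without CL4 (-2.86).

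Genes known to share inducers with these chemokines were counted beside the 3.12% higher and 6.32% lower of all genes, and with lists of this size the counts do not set them apart. Of 21 NF-kB target genes, IL1B, an inflammatory cytokine, rose 2.61-fold (adjusted p = 0.301), REL, an NF-kB subunit, was 3.21-fold lower (adjusted p = 0.315), and 19 were not called, with a median of 0.34. IL1B lost its call without CL4 (1.60), without CL46 (0.81) or with the clone as a block (unadjusted p = 0.0531 in limma). REL lost its call without CL46 (-1.15) or without moderation of the variances. IL1B rose through 39402_at (2.23), while 205067_at gave 0.54 and was not called. For REL, 206036_s_at (-1.77), 228812_at (-3.33) and 235242_at (-2.48) were called lower singly. Its probe sets 206035_at (0.13) and 239486_at (-0.96) were not called. Of 37 interferon-stimulated genes, 2 rose and 2 fell, and the median was 0.16. IFIT3, an antiviral protein, rose 4.41-fold (log2 difference 2.14, SE 0.26, adjusted p = 0.139) through 1 of its 2 probe sets, 229450_at at 4.35, while 204747_at gave -0.06. USP18, which trims the ubiquitin-like protein ISG15 from its targets, rose 4.39-fold. The antiviral GTPases MX1 and MX2 were 3.12-fold and 9.05-fold lower. The last 3 did not keep their calls over all clones. USP18 differed by 1.39 without CL9 and by 2.16 without CL46, MX1 by -1.12 without CL4 and by -1.48 without CL46, and MX2 by -2.47 without CL4 and by -2.51 without CL46. MX1 also lost its call with the clone as a block, and MX2 with arrays centred (-3.07), after quantile normalization and with gene values centred. Without moderation of the variances USP18, MX1 and MX2 were not called. Of 14 interferon ligands, receptors and their kinases, JAK2 was 2.69-fold lower (SE of the log2 difference 0.30, adjusted p = 0.205) and 0 rose.
Of 14 genes whose products trim or bind chemokines, HPSE, the enzyme that cleaves heparan sulfate, rose 3.95-fold (log2 difference 1.98, SE 0.39, adjusted p = 0.192) and 0 fell, and the median was 0.31.

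**Figure D4:**
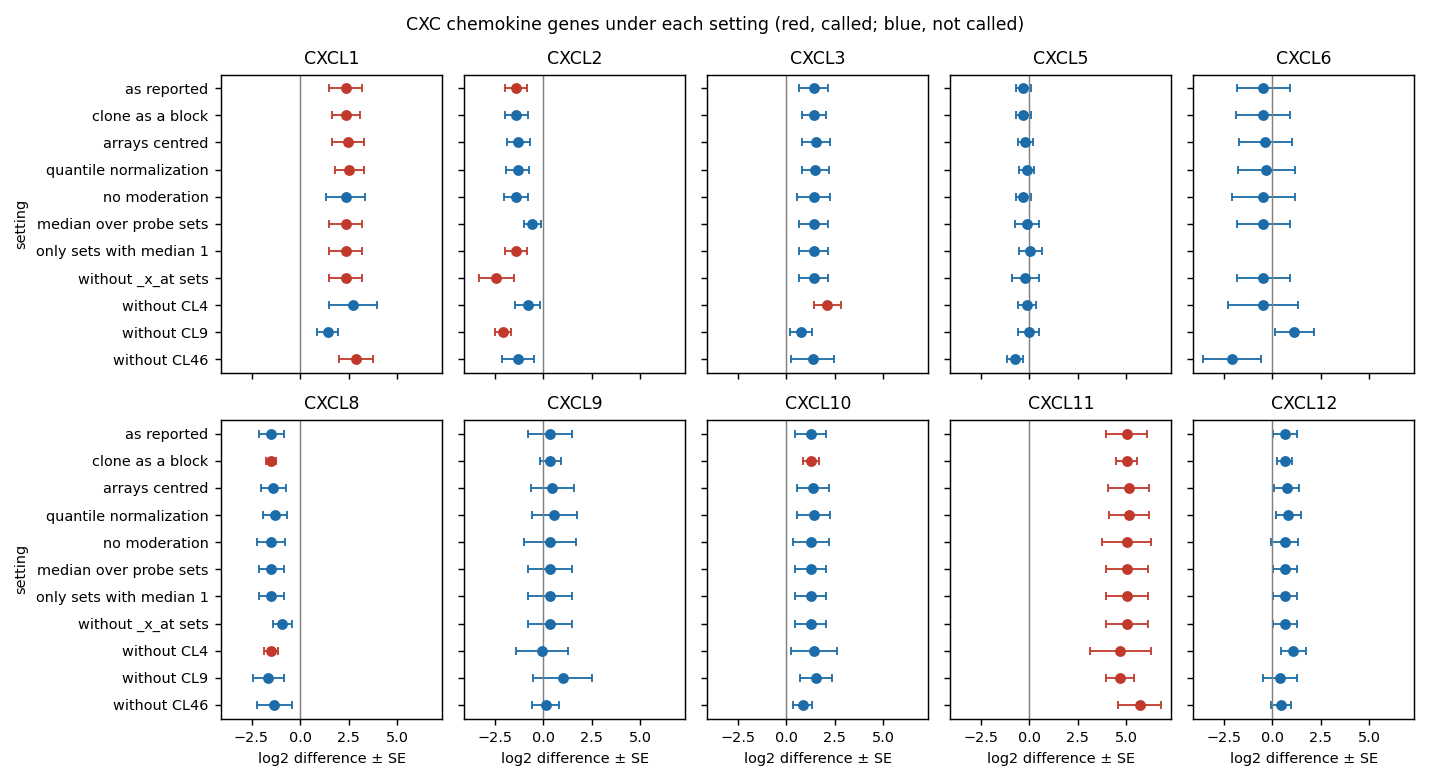
Log2 difference ± SE, ERG-induced minus non-induced by label, of each of the 10 CXC chemokines as reported and under 10 of the alternative settings, in red where the gene was called. CXCL11 is red throughout, CXCL1 is blue without moderation and without CL4 or CL9, and CXCL6 changes side when CL9 is left out.

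Markers of other cell types that make or answer chemokines were looked at beside these results. Of 6 endothelial markers 3 rose, PECAM1, CDH5 and ESAM, at log2 differences of 2.004, 3.01 and 1.37, of which ESAM lost its call without CL4 (0.88) or CL9 (1.346). The mean log2 ratio over the list ran from 0.10 to 0.73 in the arrays labelled ERG-induced and from -0.82 to -0.42 in those labelled non-induced. Of 7 megakaryocyte markers 2 rose, GP1BA (2.38) and ITGB3 (1.23, not called without CL9, 1.12, or CL46, 1.33), and the list mean ran from -0.28 to 1.21, against -1.38 to -0.35 in the non-induced arrays. Of 8 monocyte and granulocyte markers 1 rose, CSF3R, the receptor of a neutrophil growth factor (2.13), and the list mean ran from -0.09 to 0.86, against -0.58 to 0.03. CD14 of that list (2.47) was not called, and its clones differed, at -0.47 (CL4), 5.40 (CL9) and 2.49 (CL46). Of 7 fibroblast markers COL1A1 fell (-1.09), of 6 lymphocyte markers CD3D fell (-1.23) and of 5 erythroid markers measured TFRC, the transferrin receptor, fell (-1.67). In these 3 lists 0 genes rose, and the median log2 differences were 0.33, -0.02 and 0.26. LUM among the fibroblast markers (1.59), MS4A1 among the lymphocyte markers (-1.71) and KLF1 among the erythroid markers (0.71) were not called, and all ERG-induced arrays lay above the others for KLF1. The list means ran from -0.64 to 0.14, against -0.38 to -0.08 in the non-induced arrays, for fibroblast markers. They ran from -0.72 to -0.39, against -0.36 to -0.14, for lymphocyte markers and from -0.52 to -0.00401, against -0.19 to 0.25, for erythroid markers. The calls of COL1A1 and CD3D were lost with arrays centred (-0.99 and -1.13), that of COL1A1 also without CL4 (-0.85) or CL9 (-1.11), and that of CD3D without CL9 (-1.08) or CL46 (-1.21). The probe sets of COL1A1 disagreed, with 202311_s_at (-3.26) and 1556499_s_at (-2.41) called lower singly. Its others, 202310_s_at (-1.58), 202312_s_at (1.22) and 217430_x_at (0.58), were not called. As the ratios have no true level, no marker can be said to be absent, and the part of these lists in the chemokine results was not tested.

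The genes whose 6 log2 ratios most resembled those of the called members were given by Pearson's r, as a description without a test. LINC01139 (r = 0.997), HDLBP (r = 0.992) and GNA14-AS1 (r = 0.991) were closest to CXCL11, and 302 genes had r above 0.9 with it. KDM4A (r = 0.997), FOLR2 (r = 0.993) and CEBPA (r = 0.992) were closest to CXCL1, among 272 genes above 0.9. KATNAL2 (r = 0.996), VCF2 (r = 0.991) and LINC02218 (r = 0.989) were closest to CXCL2, among 122. All correlations are over the same 6 arrays, so that the difference between the groups and the array scaling enter each of them.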

How the data were processed

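RNA of 3 K562 clones with and without DOX was hybridized by the authors to 6 arrays and processed with GeneSpring. The deposited values are linear ratios to the median over the 6 arrays. In 50737 of 54675 probe sets that median equals 1 within 1e-05, and in the remaining 3938 it is lower. How the authors corrected background or scaled arrays was not given. All ratios exceeded 0, so log2 was taken directly. Left out were 62 control probe sets. Symbols came from the platform annotation: 41091 probe sets had 1 symbol (41037 matched a RefSeq gene ID of GRCh38.p14), 1801 several and 11721 none. Value columns of no mapped sample numbered 0.

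Groups were compared with limma 3.58.1 (R 4.3.3), lmFit and eBayes, two-sided, without a block, over 19775 genes (mean over probe sets) and over 54613 probe sets, and checked on simulated data. The spread behind these p-values is that between the arrays of a group. Each of these arrays is of another clone, so differences of clone, culture and array cannot be told apart. The members, lists and named genes (all members, genes of each list that were called, otherwise the 2 with the smallest p, and the 3 genes most like each called member) were chosen with earlier results of these data known, and receptors and other CXC chemokines that were not called were named after their values were seen. The 2 arrays of a clone form a pair, which entered only the fit with the clone as a block; the correlation of their deviations from the group means across genes was 0.04, 0.05 and 0.03 in CL4, CL9 and CL46. Alternatives were the clone as a block, array centring, quantile normalization, no moderation, other summaries, other thresholds and leaving out each clone; centring of gene values and the removal of _x_at probe sets were added after the data were seen.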

Additional observations from a re-analysis of the deposited data

How the results depend on the processing

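CXCL11 kept its direction and call under all 11 alternatives, and CXCL12 stayed uncalled under all 11. CXCL1 (2.34) lost its call without moderation of the variances and without CL4 or CL9, and kept it without CL46 (range with a clone left out 1.43 to 2.88). CXCL2 (-1.38) lost it with the replicate block (the clone as a block, -1.38), with arrays centred (-1.28), after quantile normalization (-1.31), without moderation (-1.38), with the median over probe sets (-0.55) and with gene values centred (-1.31), and without CL4 or CL46, and kept it without CL9 (range with a clone left out -2.05 to -0.80). With the replicate block CXCL8 (-1.49) and CXCL10 (1.28) gained a call. With clones left out CXCL3 ranged from 0.78 to 2.11, CXCL6 from -2.05 to 1.15, CXCL8 from -1.64 to -1.33 and CXCL9 from -0.054 to 1.01. CXCL5 (-0.29) was 0.063 on probe sets with a median of 1, where CXCL6 could not be fitted. Among probe sets with clones left out, 207852_at of CXCL5 ranged from -1.20 to 1.67 and 214974_x_at from -2.49 to 1.42. 206336_at of CXCL6 ranged from -2.05 to 1.15, 203915_at of CXCL9 from -0.054 to 1.01 and 209687_at of CXCL12 from -0.38 to 1.26. Likewise CXCR3 ranged from -0.093 to 0.78, CXCR4 from -1.03 to 0.42, CXCR6 from -0.90 to 0.031, ACKR1 from -0.054 to 3.05 and CXCL13 from -1.23 to 1.26.

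The count of members called higher was 1 without moderation, against 2, and 1 to 2 with a clone left out. The count called lower was 0, against 1, with arrays centred, after quantile normalization, without moderation, with the median over probe sets and with gene values centred, and 0 to 1 with a clone left out. Of member probe sets 1 to 4 were higher with a clone left out, against 4, and 1 was lower with the replicate block and with each clone left out, against 0. Over all genes 369 were higher without moderation, against 617 (939 lower, against 1250), and 0 were higher or lower at an adjusted p under 0.05. Over the other chemokine-related lists 11 genes rose after quantile normalization and 8 to 13 with a clone left out, against 7, and 4 fell without moderation and 4 to 10 with a clone left out, against 8. The split of calls over all genes moved to 749 higher and 999 lower with arrays centred, and to 848 and 923 after quantile normalization, where the median of all genes was 0.08 and 0.11, against -0.03. Signal over background is unknown, so the cause of the large spread of most members was not tested.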
